A study of Homo sapiens with 6 samples.

Results

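The 9 zinc finger (ZNF) genes described here, ZNF605, ZNF558, ZNF420, ZNF585A, ZNF502, ZNF736, ZNF222, ZNF223 and ZNF284, had reads in every wild-type (WT) library of H7 human embryonic stem cells (hESCs) and almost none in the libraries of S6K1-/- hESCs. They were chosen by a rule on the read counts, with at most 3 counts in each S6K1-/- library and at least 10 counts in each WT library, out of the 61155 symbols of the count table. Their difference between the groups is therefore a description of the choice, and no test is given for it.

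ZNF genes of the C2H2 type encode proteins with an array of zinc fingers, each a short fold around a zinc ion, that read DNA sequence. Many of them begin with a KRAB domain, which binds the corepressor TRIM28 (KAP1) and through it the histone H3K9 methyltransferase SETDB1, HP1 proteins and DNA methyltransferases, so that transposable elements and some genes are packed into repressed chromatin. These genes arose by repeated duplication and lie in clusters, many of them on chromosome 19, where relatives stand side by side in the same orientation. ZNF420 is known as a repressor of p53 target genes and ZNF558 as a repressor of SPATA18, a regulator of mitophagy, whereas the roles of most of the others are little known.

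Bulk RNA sequencing was carried out on undifferentiated H7 cells, an established hESC line, with 3 libraries of unedited WT cells and 3 libraries of the S6K1-/- clone #1, made with CRISPR/Cas9 by a deletion within RPS6KB1, the gene of the ribosomal protein S6 kinase S6K1. Both groups were grown without feeder cells on Matrigel in TeSR-E8 medium. The S6K1-/- libraries all come from 1 clone, so the genotype and any other property of that clone cannot be told apart. The sources do not state whether the libraries of a group are separate cultures, so p-values measure the spread between these libraries, which may be technical. The sample labels also carry a time of week 5 and the word knockdown, and the undifferentiated stage and the knockout were taken from the methods of the study.

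Library totals ranged from 21896698 to 24473013 counts, at which 3 counts correspond to 0.122 to 0.138 CPM (read counts scaled to a common library size). The targeted gene RPS6KB1 was counted 831, 791 and 777 times in WT and 464, 464 and 438 times in S6K1-/- hESCs, with a log2 fold change of -0.75 and an adjusted p of 2.52e-07 (edgeR quasi-likelihood test, Benjamini-Hochberg adjustment). All 8 pluripotency markers were present, with a summed level of 5085 to 5297 CPM in WT and 5022 to 5046 CPM in S6K1-/- libraries. The summed levels of 6 mesendoderm markers lay at 17.3 to 21.3 and 17.3 to 18.2 CPM, of 5 neuroectoderm markers at 4.97 to 5.6 and 7.67 to 9 CPM, of 5 mesenchyme markers at 8.42 to 9.56 and 4.46 to 4.89 CPM, with DCN at 0, and of 5 amnion or trophoblast markers at 14.6 to 17 and 13.8 to 15.9 CPM, with HAND1 at 0 in all libraries. PAX6 (4.47 to 7.58 CPM on average) made up most of the neuroectoderm sum and TWIST2 (7.62 to 3.79 CPM) most of the mesenchyme sum. PAX6 was called higher (adjusted p = 2.69e-04, edgeR) and TWIST2 lower (adjusted p = 1.80e-05, edgeR). SOX1 rose with PAX6 (6, 7 and 6 counts in WT against 16, 17 and 12) without being called. OTX1 went the other way from PAX6 (13, 14 and 7 counts in WT against 2, 1 and 2). GABRP (15.3 CPM in WT and 15 CPM in S6K1-/- libraries on average) made up most of the amnion or trophoblast sum. Within the mesendoderm list, FOXA2, EOMES and GSC lay lower in S6K1-/- hESCs (log2 fold changes -0.88, -0.74 and -0.39). MIXL1 lay higher (0.24), and edgeR called none of these. Of the mesendoderm, neuroectoderm, mesenchyme and amnion or trophoblast lists, 2, 2, 3 and 4 markers had at most 10 counts in every library. The part of these markers in the results on ZNF genes was not tested, and in bulk RNA fewer cells of a type and less RNA per cell cannot be told apart.

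Across the 9 ZNF genes, the WT libraries held 4928 reads in sum and the S6K1-/- libraries 5 reads out of 69785508. Of the 27 values in S6K1-/- libraries, 22 were 0 and 5 were 1, and ZNF558, ZNF420, ZNF585A and ZNF736 were at 0 in all 3. The 5 reads fell on ZNF605, ZNF222 and ZNF223 in replicate 1 and on ZNF502 and ZNF284 in replicate 2, while replicate 3 held none. A count of 0 allows up to 3 counts per library, so the folds below are lower bounds computed against 3 counts in each S6K1-/- library, and they are limits set by the counting rather than estimates of how much RNA was left. The same 3 counts were used where a library held 1 read, and the mean WT level was taken without its own counting error.

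ZNF605, a gene of the minus strand of chromosome 12 (chr12:132918306-132956306, GRCh38, GENCODE 44), had 737, 661 and 692 counts in WT and 1, 0 and 0 counts in S6K1-/- libraries. Its WT level of 29 ± 1.83 CPM (SD, n = 3) was the highest of the 9 genes, and the level in S6K1-/- hESCs was at least 222-fold lower. ZNF558 (chr19:8806170-8832314, minus strand) had 346, 373 and 358 counts in WT and 0 in every S6K1-/- library, at least 115-fold lower from a WT level of 14.9 ± 0.635 CPM (SD, n = 3). Both genes thus had at most 1 read per library left.

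ZNF420 (chr19:37007857-37130368, plus strand) had 187, 184 and 182 counts in WT and 0 in every S6K1-/- library, at least 58.8-fold lower. ZNF585A (chr19:37106734-37172741, minus strand), which overlaps ZNF420 on the opposite strand, had 155, 110 and 123 counts in WT and likewise 0 in every S6K1-/- library, at least 41.3-fold lower. ZNF502, on the plus strand of chromosome 3 (chr3:44712643-44723831), had 150, 130 and 151 counts against 0, 1 and 0, at least 45.9-fold lower. These 3 genes had WT levels of similar size, at 5.38 to 7.67 CPM on average.

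ZNF222 (chr19:44025342-44033110), ZNF223 (chr19:44051367-44067999) and ZNF284 (chr19:44072159-44089613) follow each other on the plus strand of chromosome 19, with 46.8 kb between the first start and the last. ZNF222 had 49, 57 and 47 counts in WT and 1, 0 and 0 in S6K1-/- libraries, at least 16.3-fold lower. ZNF284 had 34, 49 and 33 counts against 0, 1 and 0, at least 12.3-fold lower. ZNF223 had 19, 20 and 20 counts against 1, 0 and 0, at least 6.28-fold lower.

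ZNF736, on the plus strand of chromosome 7 (chr7:64307459-64356634), was the member nearest to the WT limit of the rule, with 17, 19 and 25 counts in WT and 0 in every S6K1-/- library, at least 6.52-fold lower. For ZNF736 and ZNF223 the WT depth alone keeps the bound low, since about 20 counts cannot show a larger fold against a floor of 3. No WT library stood apart among the 9 genes, whose coefficient of variation over the WT libraries ran from 2.29% for ZNF420 to 23.6% for ZNF736.

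**Figure D1:**
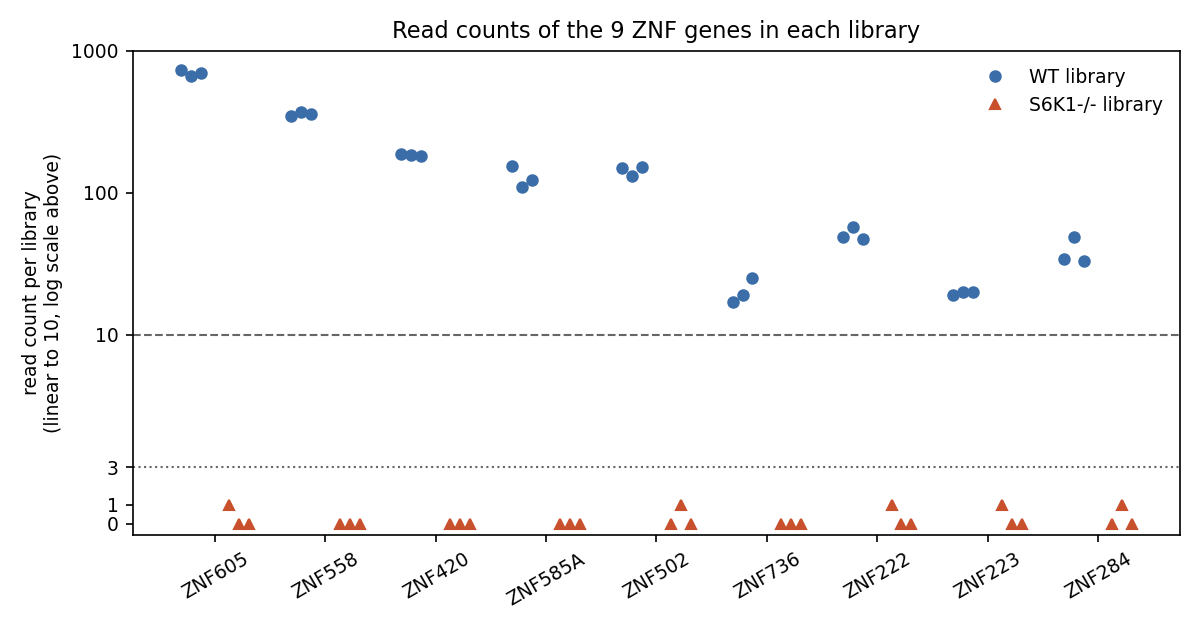
Read counts of the 9 ZNF genes (horizontal axis) in each of the 3 WT (circles) and 3 S6K1-/- libraries (triangles), with the count on an axis that is linear to 10 and logarithmic above, and with lines at the limits of the rule, 3 (dotted) and 10 (dashed) counts. All S6K1-/- values are 0 or 1, while the WT values run from 17 for ZNF736 to 737 for ZNF605.

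Relative to exonic length, the WT level was highest for ZNF605, at 2.68 ± 0.169 CPM per kb (SD, n = 3). ZNF420 (1.88 CPM per kb), ZNF502 (1.83) and ZNF558 (1.83) came next, and neighbours in this order had ranges over the WT libraries that overlapped. ZNF222 followed at 1.06 CPM per kb, then ZNF585A (0.5) and ZNF284 (0.37), whose ranges overlapped each other. ZNF223 (0.247) and ZNF736 (0.0759 ± 0.0179) were lowest on this scale, with ranges apart from the genes before them.

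Across the table, 29 of 18745 symbols with at least 10 counts in each WT library met the same rule, which is 0.155%, and 12 of these 29 were among the 467 ZNF symbols with that WT level. Besides the 9 genes, the rule was met by ZNF559 (143, 153 and 121 counts in WT against 0, 2 and 0), ZNF285 (96, 81 and 73 against 0, 0 and 0) and ZNF132 (29, 19 and 16 against 1, 3 and 1), all on chromosome 19. The mirrored rule, at most 3 counts in each WT and at least 10 in each S6K1-/- library, was met by 10 symbols, 0 of them ZNF genes. These counts come from the measure that chose the genes and are given as a description.

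As the genes with the most similar pattern, the 8 with the highest WT level were taken from the 17 non-ZNF symbols that met the same rule. TCEAL2, of the transcription elongation factor A-like family, had 167, 191 and 169 counts in WT and 0 in every S6K1-/- library. BEX5, of the brain expressed X-linked family, lies near TCEAL2 on chromosome X and had 52, 60 and 51 counts against 0, 0 and 0. The others were AL512358.2 (64, 47 and 61 against 1, 1 and 3), the homeobox gene NKX3-2 (32, 19 and 24 against 1, 0 and 0), MPV17L (22, 27 and 21 against 0, 0 and 0), AC012309.2 (28, 22 and 16 against 0, 0 and 0), the pseudogene KLF2P2 (24, 28 and 12 against 0, 0 and 1) and AC008734.1 (19, 21 and 20 against 0, 0 and 0).

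Of the 25 symbols meeting the rule that have a position, 11 lie on chromosome 19, and 9 of the 12 ZNF symbols do. Chromosome 19 carried 7.23% of all symbols expressed at the WT limit and 49% of the expressed ZNF symbols. Of the 9 genes, 6 lie on chromosome 19, in 3 places far from each other, and the others on chromosomes 3, 7 and 12.

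Just outside the rule, ZNF585B had 65, 80 and 76 counts in WT and 4, 6 and 5 in S6K1-/- libraries, ZNF568 had 24, 30 and 18 against 9, 5 and 8, and ZNF829 had 10, 14 and 21 against 8, 7 and 10. ZNF835 (9, 7 and 8 counts against 0, 0 and 0), ZNF229 (3, 3 and 5 against 2, 0 and 0) and ZNF454 (12, 2 and 6 against 2, 2 and 1) fell short of the WT limit. Thus ZNF835 differed from ZNF736 mainly in its WT depth.

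The neighbouring ZNF genes show whether the loss of reads covered whole clusters or single genes. Symbols of the ZNF, ZFP, ZIM, ZSCAN and ZKSCAN families that start within 250 kb of the start of a member numbered 37, of which 31 kept expression, with at least 10 counts in all 6 libraries. This group is defined by detection alone and holds ZNF850 and ZNF233, which were called lower, and ZNF404, which did not pass at a log2 fold change of -1.05. Of the 35 tested, 4 were lower in S6K1-/- hESCs, 0 were higher and 31, not the same set as those that kept expression, did not pass the threshold of 0.001 (edgeR quasi-likelihood test, Benjamini-Hochberg adjustment over all genes), 11.4% lower against 2.54% of the 19521 genes tested lower and 1.42% higher. At an unadjusted p under 0.05 edgeR had 16 neighbours lower and 2 higher, where 14.5% of all genes tested were lower and 11.8% higher. At the same limit DESeq2 had 9 lower and 1 higher, where 5.18% and 5.01% of all genes with a p were. At the adjusted threshold DESeq2 called 3 neighbours lower and 0 higher, against 2.25% and 1.57% of all genes with an adjusted p. The median log2 fold change of the neighbours was -0.16, with 30 of 35 below 0, whereas the median over all genes tested was 0.00 with 9879 of 19521 below 0.

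In the chromosome 19 cluster of ZNF222, ZNF223 and ZNF284, reads were found on both sides of the 3 genes. ZNF230, whose start lies at -22.4 kb from that of ZNF222, had 95, 103 and 84 counts in WT and 88, 75 and 71 in S6K1-/- libraries, a log2 fold change of -0.21 (adjusted p = 0.342, edgeR). ZNF224, a KRAB repressor that starts 22.2 kb after ZNF284, had 467, 437 and 414 counts against 392, 368 and 351, a log2 fold change of -0.19 (adjusted p = 0.0832, edgeR). The 3 genes with at most 1 read per S6K1-/- library were thus consecutive among the ZNF genes. The next ZNF gene on either side had at least 71 counts in every library.

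Farther out in that cluster, the log2 fold changes were -0.07 for ZNF155, 0.42 for ZNF221 and -0.03 for ZNF45 on the side of ZNF222, and -0.19 for ZNF225, -0.01 for ZNF234 and -0.18 for ZNF226 on the side of ZNF284, none of which passed the threshold in edgeR. ZNF404, whose start lies at -124.0 kb from that of ZNF222, had 45, 53 and 47 counts in WT and 17, 25 and 25 in S6K1-/- libraries, groups that did not overlap, with a log2 fold change of -1.05 that missed the threshold (adjusted p = 0.00284, edgeR). ZNF283, at 198 kb from ZNF222, fell, with 113, 129 and 93 counts in WT against 11, 7 and 10 in S6K1-/- libraries (log2 fold change -3.50, SE 0.215, adjusted p = 2.22e-08, edgeR). ZNF233, at 187.7 kb from ZNF284, had 31, 51 and 31 counts against 10, 10 and 12 and was lower with an adjusted p of 5.40e-04 (edgeR), a call that held in 4 of 11 other settings. ZNF285, which met the count rule, lies farther along, at 376.3 kb from ZNF222. The cluster therefore held genes with at most 1 read per S6K1-/- library, genes with a partial decrease and genes without a called change.

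On the stretch of chromosome 19 with ZNF420 and ZNF585A, ZNF585B, the closest relative of ZNF585A, starts 45.4 kb from it and was lower with a log2 fold change of -3.79 (SE 0.248, adjusted p = 4.46e-08, edgeR). ZNF383, which starts beside ZNF585B, 45.2 kb from ZNF585A, had 103, 106 and 105 counts in WT and 75, 85 and 85 in S6K1-/- libraries (log2 fold change -0.30, adjusted p = 0.136, edgeR). ZNF850, 235 kb before ZNF420, was lower with 379, 386 and 396 counts against 136, 167 and 129 (log2 fold change -1.37, SE 0.0888, adjusted p = 4.19e-08, edgeR). The nearest neighbours before ZNF420, ZNF568 at -91.5 kb (log2 fold change -1.63, adjusted p = 0.0029, edgeR, groups apart) and ZNF829 at -91.6 kb (-0.78, adjusted p = 0.199), were below 0 without passing the threshold. Reads of ZNF790 (log2 fold change -0.02), ZNF345 (-0.05), ZNF875 (0.10) and ZNF527 (-0.04) did not differ by a called amount.

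No neighbour of ZNF605 on chromosome 12 or of ZNF502 on chromosome 3 passed the threshold. Next to ZNF605, ZNF26 had 227, 228 and 228 counts in WT and 232, 233 and 184 in S6K1-/- libraries at a distance of 30.1 kb, a log2 fold change of -0.02. ZNF84, ZNF140 and ZNF891 had log2 fold changes of -0.23, -0.16 and -0.15, none called by edgeR. The groups did not overlap for these 3 genes, and ZNF84 had an adjusted p of 0.00782 (edgeR). Next to ZNF502, ZNF501 at 17 kb had 230, 205 and 207 counts against 132, 151 and 139, a log2 fold change of -0.54 with an adjusted p of 0.00108 (edgeR), just short of the threshold. Without a filter on low counts ZNF501 was past it (adjusted p = 1.35e-05, edgeR). At an adjusted p of 0.05 both ZNF84 and ZNF501 would be called lower. ZNF35 (log2 fold change -0.01), ZNF197 (-0.05) and ZNF660 (-0.22) farther along chromosome 3 were not called.

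ZNF558 had no ZNF neighbour within 250 kb, and the ZNF neighbours of ZNF736, ZNF679 and ZNF735, had 0 counts in all libraries. For these 2 members there is thus no expressed neighbour within that distance to set beside them. When the distance was set to 100 kb, 1 of 16 tested neighbours was lower, and at 500 kb 7 of 58 were lower and 1, ZNF680, was higher.

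**Figure D2:**
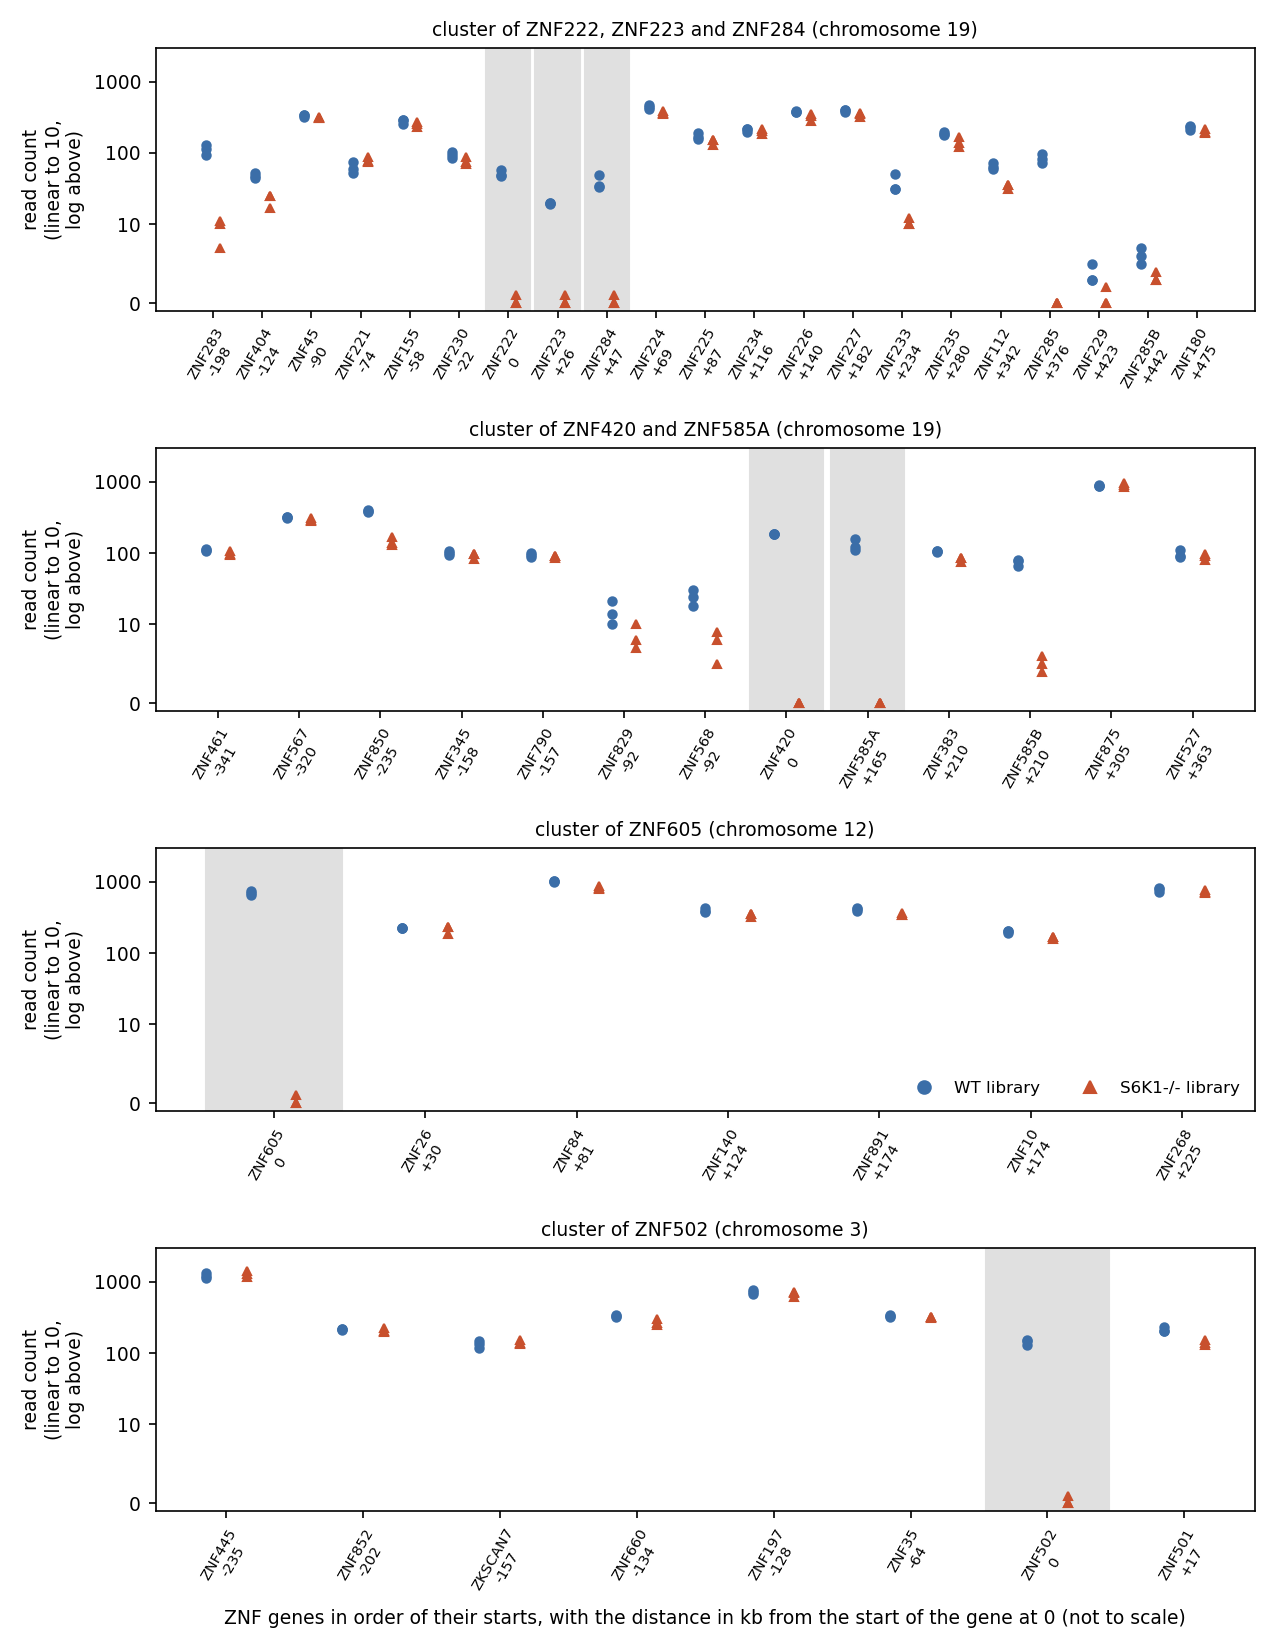
Read counts of ZNF genes in each library along 4 clusters, with genes in the order of their starts and the distance in kb from the gene at 0 under each name (not to scale), WT libraries as circles, S6K1-/- libraries as triangles and members on grey, on an axis linear to 10 and logarithmic above. The triangles of the members lie at 0 or 1, while ZNF230 and ZNF224 on either side of ZNF222, ZNF223 and ZNF284 lie at 71 to 88 and at 351 to 392 counts.

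Of the genes that overlap a member or start beside it, 5 outside the 9 were found in the count table by symbol. CHFR, the gene of a ubiquitin ligase of the mitotic checkpoint, overlaps ZNF605 on the same strand, because 1 of its 24 annotated transcripts starts 2 bases from ZNF605, while the other 23 start more than 40 kb away and its RefSeq start lies 68.7 kb away. CHFR had 964, 936 and 897 counts in WT and 943, 974 and 885 in S6K1-/- libraries, a log2 fold change of 0.06 (adjusted p = 0.445, edgeR). MBD3L1, SOCS5P3, TRIM60P18 and RNU6-902P had 0 counts in every library, so of these 5 genes only CHFR could be tested, and edgeR and DESeq2 called 0, also at an unadjusted p under 0.05. The overlapping genes that the annotation gives by identifier alone, among them the gene on the same strand as ZNF222, ZNF223 and ZNF284, were not analysed here.

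The other ZNF genes, counted after the 9 genes chosen for low counts had been taken out, were called in both directions. Of the 553 ZNF symbols other than the 9, 462 were tested, of which 14 were lower and 14 higher in S6K1-/- hESCs in edgeR at 0.001, 3.03% in each direction against 2.54% lower and 1.42% higher over all genes tested, with a median log2 fold change of 0.01. The counts were 9 lower and 14 higher with at least 10 counts in every library, 12 and 15 with DESeq2 and 24 and 20 without a filter. Without S6K1-/- replicate 1 these counts were 9 lower and 9 higher, and without S6K1-/- replicate 3, 9 were lower. ZNF285, ZNF559, ZNF585B, ZNF132 and ZNF283 were among the lower genes, and ZNF528 (14, 10 and 16 counts in WT against 86, 68 and 71, log2 fold change 2.54), ZNF37A (65, 57 and 44 against 298, 310 and 290, 2.49) and ZNF680 (86, 102 and 91 against 308, 282 and 304, 1.74) among the higher, all named after their values were seen. ZFP28, also named after its values were seen, had 229, 222 and 221 counts in WT and 4, 4 and 5 in S6K1-/- libraries.

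The genes through which KRAB proteins and DNA methylation act on chromatin were measured in the same libraries. Of 30 listed genes, 27 were tested, of which 2 were lower, 2 higher and 23 not called in edgeR at 0.001, 7.41% in each direction against 2.54% lower and 1.42% higher over all genes tested, with a median log2 fold change of 0.06. SETDB1, the H3K9 methyltransferase recruited by TRIM28, fell from 1556, 1464 and 1458 counts to 1037, 1068 and 992 (log2 fold change -0.47, SE 0.0456, adjusted p = 3.78e-06). DNMT3B, a de novo DNA methyltransferase that is abundant in hESCs, fell from 34830, 34421 and 32650 counts to 27268, 26076 and 23269 (log2 fold change -0.35, SE 0.0438, adjusted p = 4.88e-05). Both decreases were past the threshold in all 11 other settings.

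UHRF1, which brings DNMT1 to newly replicated DNA, rose from 757, 770 and 693 counts to 974, 973 and 843 (log2 fold change 0.39, adjusted p = 1.04e-04, edgeR). CHD3, a subunit of the NuRD complex, rose by a log2 fold change of 0.31 (adjusted p = 3.03e-04, edgeR). Over 11 other settings UHRF1 ranged from 0.37 to 0.42 and was past the threshold in 10, and CHD3 ranged from 0.28 to 0.35 and was past it in 8. Of the list, 1 gene was called higher without WT replicate 3, 1 without S6K1-/- replicate 2 and 0 without S6K1-/- replicate 1. TRIM28 itself (19248, 20617 and 17784 counts against 18066, 19140 and 16846, log2 fold change -0.03), DNMT1 (0.06) and DNMT3A (0.09) were not called.

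**Figure D3:**
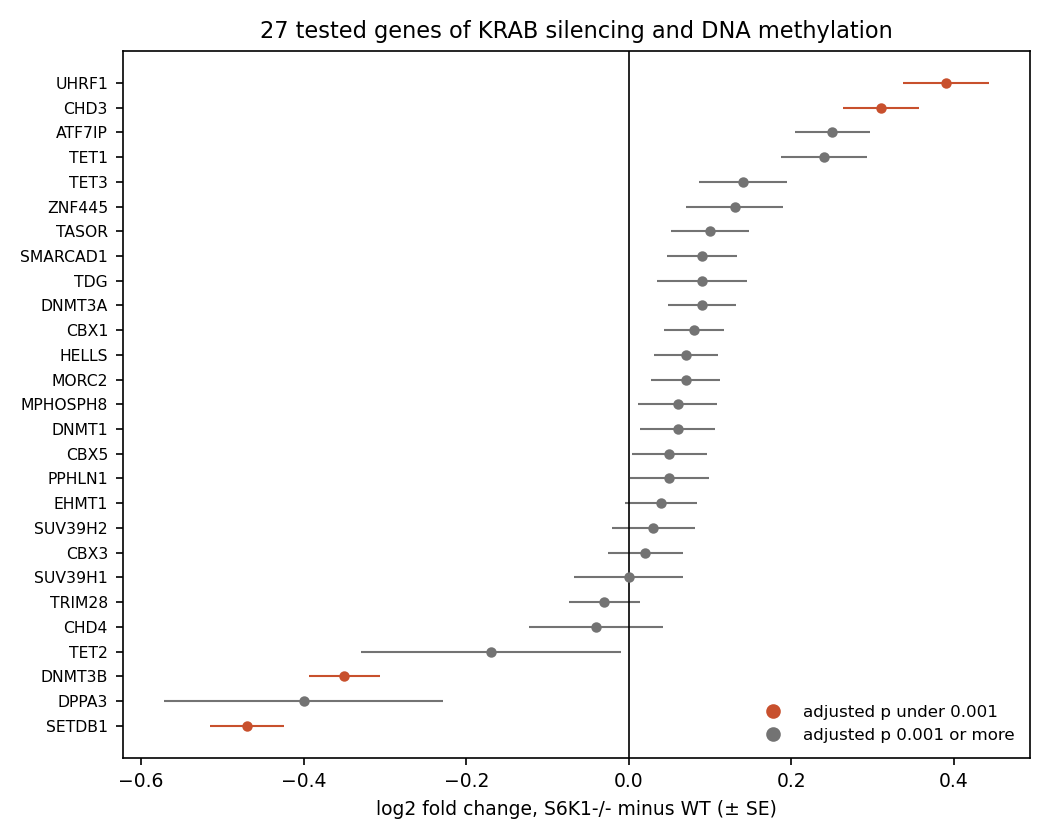
Log2 fold change (S6K1-/- minus WT, horizontal axis, bars ± SE, n = 3 per group) of the 27 tested genes of KRAB silencing and DNA methylation, one per row. SETDB1 at -0.47 and DNMT3B at -0.35 were lower and CHD3 at 0.31 and UHRF1 at 0.39 higher at an adjusted p under 0.001 (coloured), and TRIM28 lies at -0.03.

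The promoters of the members were described from RefSeq windows (GRCh38.p14) of 250 bases before to 50 bases after the start, which were found for 8 of the 9 genes. The windows below are the 250 bases before the start in the direction of the gene, and they are shown for the cluster in which the next genes on both sides were detected, so that ZNF222 and ZNF284 can be read beside ZNF230 and ZNF224. Capitals mark matches on either strand to CCGGAAG, the core of ETS family sites, to a 12-base form of the ZNF143 consensus site, or to AANATGGCG, the core of YY1 sites. The windows lie at chr19:44002707-44002956 (ZNF230), chr19:44025129-44025378 (ZNF222), chr19:44071909-44072158 (ZNF284) and chr19:44094111-44094360 (ZNF224), all on the plus strand.
ZNF230: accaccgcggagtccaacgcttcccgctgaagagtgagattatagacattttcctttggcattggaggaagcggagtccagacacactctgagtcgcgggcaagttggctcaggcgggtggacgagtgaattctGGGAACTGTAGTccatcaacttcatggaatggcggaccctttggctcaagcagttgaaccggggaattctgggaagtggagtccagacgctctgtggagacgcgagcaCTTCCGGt
ZNF222: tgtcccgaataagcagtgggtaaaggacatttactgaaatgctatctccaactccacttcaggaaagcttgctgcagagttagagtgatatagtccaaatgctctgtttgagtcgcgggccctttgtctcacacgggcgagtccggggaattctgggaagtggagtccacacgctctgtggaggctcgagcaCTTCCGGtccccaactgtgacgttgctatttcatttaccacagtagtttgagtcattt
ZNF284: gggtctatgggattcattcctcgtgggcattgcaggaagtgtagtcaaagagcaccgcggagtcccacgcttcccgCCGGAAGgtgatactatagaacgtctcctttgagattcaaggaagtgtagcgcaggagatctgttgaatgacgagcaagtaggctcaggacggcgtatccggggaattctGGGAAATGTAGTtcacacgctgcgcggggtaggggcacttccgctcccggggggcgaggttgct
ZNF224: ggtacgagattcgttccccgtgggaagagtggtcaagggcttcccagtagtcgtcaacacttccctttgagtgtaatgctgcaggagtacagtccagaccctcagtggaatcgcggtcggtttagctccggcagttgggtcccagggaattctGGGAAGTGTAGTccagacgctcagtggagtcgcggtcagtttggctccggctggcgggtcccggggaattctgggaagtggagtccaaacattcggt

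All 4 windows hold a capital stretch, the ZNF143 form in ZNF230, ZNF284 and ZNF224 and the ETS core in ZNF230, ZNF222 and ZNF284. Genes with at most 1 read per S6K1-/- library and genes that kept expression thus share these letters within the cluster. The CpG observed/expected ratio of the whole window was 0.72 for ZNF222, 0.88 for ZNF284, 0.85 for ZNF230 and 0.81 for ZNF224.

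The 3 members with the highest WT counts are shown for their density of CpG, the dinucleotide at which DNA is methylated, although methylation was not measured in these libraries. Their windows lie at chr12:132956307-132956556 on the minus strand (ZNF605), chr19:8832305-8832554 on the minus strand (ZNF558) and chr19:37078183-37078432 on the plus strand (ZNF420). The RefSeq start of ZNF420 (chr19:37078433) lies inside the GENCODE gene, downstream of its first annotated base (chr19:37007857). Distances to neighbours were taken from the GENCODE start, so ZNF850, ZNF568 and ZNF829 lie farther from the RefSeq start.
ZNF605: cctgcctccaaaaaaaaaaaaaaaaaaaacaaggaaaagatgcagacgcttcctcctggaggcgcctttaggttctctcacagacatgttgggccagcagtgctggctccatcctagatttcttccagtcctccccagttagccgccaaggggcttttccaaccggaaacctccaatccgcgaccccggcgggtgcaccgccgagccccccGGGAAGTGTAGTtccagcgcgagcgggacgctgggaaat
ZNF558: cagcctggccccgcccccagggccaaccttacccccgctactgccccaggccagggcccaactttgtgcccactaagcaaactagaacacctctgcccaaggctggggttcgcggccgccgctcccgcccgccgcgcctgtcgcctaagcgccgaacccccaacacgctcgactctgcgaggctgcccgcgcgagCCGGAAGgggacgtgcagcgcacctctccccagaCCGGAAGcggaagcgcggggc
ZNF420: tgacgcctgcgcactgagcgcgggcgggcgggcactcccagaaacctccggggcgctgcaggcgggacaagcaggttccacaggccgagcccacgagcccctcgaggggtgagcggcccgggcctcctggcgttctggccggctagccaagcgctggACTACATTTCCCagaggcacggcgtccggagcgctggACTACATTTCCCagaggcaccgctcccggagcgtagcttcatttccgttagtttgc

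These windows hold 24 (ZNF605), 34 (ZNF558) and 30 (ZNF420) CpG dinucleotides over 300 bases, with observed/expected ratios of 0.92, 0.85 and 0.87. ZNF585A (0.81), ZNF502 (0.59) and ZNF736 (0.42) complete the 8 members, of which 6 exceeded a ratio of 0.6. The median ratio was 0.83 for the 8 members, 0.82 for 27 neighbours that kept expression, 0.80 for 381 other expressed ZNF genes and 0.58 for all 27305 windows. Ratios over 0.6 were found in 85.2% of the neighbours, 81.9% of the other expressed ZNF genes and 48.9% of all windows.

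The ETS core was present in 6 of 8 member windows, and in 29.6% of those of the neighbours that kept expression, 40.9% of those of the other expressed ZNF genes and 10.7% of all windows. The ZNF143 form was present in ZNF605, ZNF420 and ZNF284, 3 of 8, against 37% of the neighbours, 9.71% of the other expressed ZNF genes and 0.886% of all windows. AANATGGCG was found in 2 of 8, ZNF585A and ZNF736, against 3.7% of the neighbours, 6.04% of the other expressed ZNF genes and 3.37% of all windows. TATAAA was found in 0 of 8 members, in 0 of the neighbours, in 3.41% of the other expressed ZNF genes and in 12% of all windows. GGGCGG, the core of SP sites, was found in 2 of 8 members against 48.1%, 65.1% and 44.6% in the same order. CCAAT was found in 3 of 8 against 37%, 48% and 35.7%, and a form of the NRF1 site in 0 of 8 against 14.8%, 13.4% and 6.28%. A match is a description of the letters in a window, and with 8 windows these shares are imprecise. The motif letters were chosen after the promoters had been read, so the shares among members are no test.

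**Figure D4:**
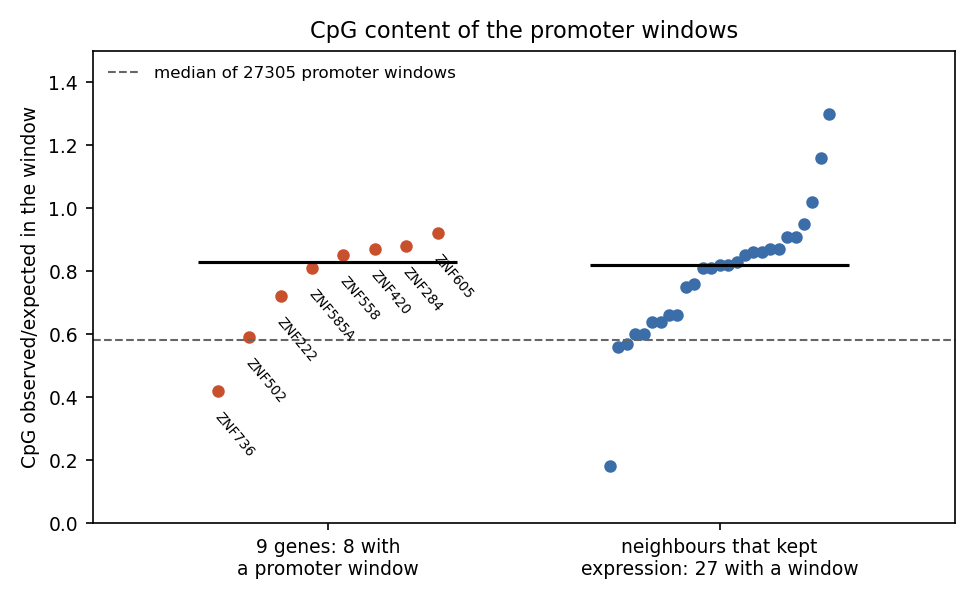
CpG observed/expected ratio of the 300-base promoter window (vertical axis) for 8 members (named points) and 27 neighbours that kept expression (points in order of value), with black lines at the medians of 0.83 and 0.82 and a dashed line at the median of all 27305 windows, 0.58. The members run from 0.42 (ZNF736) to 0.92 (ZNF605), within the wider range of the neighbours from 0.18 (ZNF404) to 1.30 (ZNF84).

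The encoded proteins, translated from the main GENCODE transcript of each gene, range from 402 residues (ZNF558) to 769 residues (ZNF585A) and hold 8 to 21 C2H2 fingers by pattern, with a median of 11 against 13 in the neighbours that kept expression and 10 in the other expressed ZNF genes. A pattern of the KRAB A box was found in 8 of 9 members, the exception being ZNF502, and in 64.5% of those neighbours and 51.7% of the other expressed ZNF genes. ZNF585A is 94.5% identical to ZNF585B, and ZNF222 is 78.9% identical to ZNF223. For the others the closest of the compared ZNF proteins was 56.3% (ZNF605 to ZNF84) to 82.7% (ZNF736 to ZNF727) identical.

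Reads shared with relatives can be moved or lost in counting, so the exons were searched for stretches of 100 bases that occur elsewhere in the genome. In ZNF585A 7.09% of these stretches and in ZNF605 2.06% had an exact copy elsewhere on the chromosomes, and none did in the other 7 members. Overlapping annotation was wider, since 45.71% of the exonic bases of ZNF223, 44% of those of ZNF284 and 17.24% of those of ZNF222 also belong to another gene annotated on the same strand, and 7.53% of those of ZNF420 to a gene on the opposite strand. Such overlap was 7.4% for ZNF736, 6.95% for ZNF585A and 2.21% for ZNF605 on the same strand and 2.62% for ZNF558 on the opposite strand, and ZNF502 had none. The strand setting of the counting is not given in the sources used here, and the counts of these 8 genes are uncertain to that extent.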

How the data were processed

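Undifferentiated H7 hESCs were sequenced as 3 WT and 3 S6K1-/- libraries (TruSeq Stranded mRNA). The authors trimmed the reads with Trim Galore 0.6.5, aligned them with Bowtie2 2.4.5 to GRCh38 and deposited whole-number counts per gene symbol from featureCounts, without normalization. Since this aligner does not split reads at introns, reads that span exons may have been lost. The annotation release and strand setting are not given in the sources used here. A deposited table of the authors' own comparison (mean, fold change, standard error, statistic, p-values and a mark of direction, made with DESeq2 1.37.4) was not used.

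Counts were compared with edgeR 4.0.16 (R 4.3.3), using filterByExpr, TMM and the quasi-likelihood F test with genotype as the only factor, Benjamini-Hochberg adjustment over the 19521 genes tested and the study's threshold of 0.001. Standard errors are the log2 fold change over the square root of F. CPM are relative to the TMM effective library size. Library totals of 21896698 to 24473013 counts put 3 counts at 0.122 to 0.138 CPM. Folds of members are lower bounds, the mean WT CPM over that of 3 counts per S6K1-/- library. They allow for counting error of the S6K1-/- counts only, not for that of the WT counts. The fit was tested on simulated data. Replicates of a group differed by 2.23 to 4.51 in chi-square per degree of freedom, so none was a copy of another.

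The members and lists were chosen with earlier results of these data known, and the motif letters after the promoters had been read. Named were the 9 members, RPS6KB1, up to 4 neighbours per member that kept expression (nearest first), expressed partner genes, up to 3 ZNF genes just outside the rule on each side, the 8 most abundant non-ZNF genes that met it, and silencing genes past the threshold with TRIM28, SETDB1, DNMT1, DNMT3A and DNMT3B. Positions come from GENCODE 44 on GRCh38, matched for 36797 symbols directly and 668 through a RefSeq synonym. Exonic length is the union of a gene's exons. CpG observed/expected is the CpG number times the window length over the product of C and G numbers. Alternatives were RLE scaling, no filter, at least 10 counts in every library, DESeq2 1.42.0 (Wald test), a replicate block, an adjusted p of 0.05, each library left out, other limits of the count rule and other distances.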

Additional observations from a re-analysis of the deposited data

How the results depend on the processing

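All folds of the 9 members stayed lower bounds of similar size under RLE scaling and with any library left out, with 218 to 230 for ZNF605 and 5.65 to 7.1 for ZNF736. Other limits of the count rule gave 9 to 15 ZNF genes instead of 12, and 7 of the 9 members remained at a WT limit of 20 counts.

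Without a filter on low counts 982 genes were lower and 591 higher, 7 neighbours and 24 other ZNF genes were lower, and 4 silencing genes were higher. With at least 10 counts in every library, which removes the genes that fell furthest, 2 neighbours and 9 other ZNF genes were lower. DESeq2 called 4 silencing genes higher. At an adjusted p of 0.05, 1622 genes were lower and 1067 higher, 8 neighbours and 32 other ZNF genes were lower, 35 other ZNF genes were higher and 4 silencing genes were higher. Neighbours called lower numbered 1 within 100 kb and 7 within 500 kb. The cause of the moves without a filter and under DESeq2 was not tested.

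With each library left out in turn, 313 to 445 genes were lower and 175 to 235 higher, 3 to 4 neighbours and 9 to 12 other ZNF genes were lower, 9 to 11 other ZNF genes were higher and 0 to 2 silencing genes were higher. The lowest count of lower genes, 313, came without S6K1-/- replicate 3, and the counts of 175 and 179 higher genes came without S6K1-/- replicates 1 and 2.

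The fold change of some uncalled genes near 0 changed sign when a library was left out. Over these settings it ran from -0.06 to 0.06 for ZNF26, from -0.04 to 0.03 for ZNF790, from -0.11 to 0.05 for ZNF527, from -0.02 to 0.02 for ZNF35 (0.00 with DESeq2), from -0.16 to 0.01 for ZNF155, from -0.06 to 0.01 for ZNF45, from -0.07 to 0.04 for ZNF234 and from -0.05 to 0.01 for TRIM28.

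The replicate numbers did not pair the libraries, with correlations of 0.018, 0.00174 and 0.0316 between the deviations of same-numbered libraries, and 3 of 6 libraries correlated best with their own number. With the replicate number as a block, 423 genes were lower and 241 higher, and 3 neighbours were lower, since ZNF233 had an adjusted p of 0.00106 (edgeR).

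The depth limits what can be said of the 9 genes, since a count of 0 allows a level of up to 3 counts per library, 0.125 to 0.138 CPM in S6K1-/- libraries. The bound is widest for ZNF223 and ZNF736, with 59 and 61 WT counts in sum. One clone, overlapping annotation at ZNF222, ZNF223 and ZNF284 and alignment without splice junctions limit all of these values.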
